A study of Homo sapiens with 6 samples.

Results

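Integrins are cell-surface receptors made of 1 α and 1 β subunit that bind proteins of the extracellular matrix outside the cell and the actin or keratin cytoskeleton inside it. The 10 integrin subunit genes described here, 6 α and 4 β, were taken by gene name from the 58735 genes of the deposited count table. They were measured in SW1990, a human line derived from pancreatic ductal adenocarcinoma, in 3 control libraries and 3 libraries of cells given 5 µM EPZ-5676, a small molecule that inhibits the histone methyltransferase DOT1L. The controls are described as untreated in the sample characteristics and as given an equal volume of DMSO in the treatment protocol. How long the cells were treated was not given in the sources used here. No label says whether the replicates were separate cultures. The p-values therefore set the difference between groups only against the spread between these libraries, which may not be that between cultures.

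The β1 subunit (ITGB1) is the most promiscuous partner of the family. It forms collagen receptors with α1 and α2, laminin receptors with α3 and α6, the classical fibronectin receptor with α5, and a receptor for RGD-containing ligands with αV. The β4 subunit pairs with α6 alone and anchors epithelial cells to laminin through hemidesmosomes, while β5 and β6 pair with αV alone. An α and a β subunit must pair in the endoplasmic reticulum before either reaches the surface, so that mRNA levels are levels of the parts and not of the assembled receptors.

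The promoter sequences of 4 of these genes are shown because they set ITGB1, the shared β subunit gene, beside the neighbouring collagen receptor genes ITGA1 and ITGA2, of which ITGA1 fell and ITGA2 did not pass the test, and beside ITGB6, which had no reads. Each runs 5′ to 3′ on the strand of the gene, from 250 bases before the RefSeq start site (GRCh38.p14) to the last base before an annotated exon of the gene, and capitals mark matches to GGGCGG or its reverse complement. They lie at chr10:32958233-32958480 (minus strand), chr5:52787666-52787895 (plus), chr5:52989102-52989325 (plus) and chr2:160200314-160200522 (minus).
ITGB1: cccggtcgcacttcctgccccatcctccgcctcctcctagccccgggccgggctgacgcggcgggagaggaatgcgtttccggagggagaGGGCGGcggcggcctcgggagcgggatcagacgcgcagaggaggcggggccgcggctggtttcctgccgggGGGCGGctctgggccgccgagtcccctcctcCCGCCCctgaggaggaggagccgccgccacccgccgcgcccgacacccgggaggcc
ITGA1: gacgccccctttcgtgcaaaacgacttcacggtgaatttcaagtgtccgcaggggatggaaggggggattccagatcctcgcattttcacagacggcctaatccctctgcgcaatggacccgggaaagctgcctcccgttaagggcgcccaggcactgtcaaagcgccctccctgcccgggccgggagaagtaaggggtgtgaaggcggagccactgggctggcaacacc
ITGA2: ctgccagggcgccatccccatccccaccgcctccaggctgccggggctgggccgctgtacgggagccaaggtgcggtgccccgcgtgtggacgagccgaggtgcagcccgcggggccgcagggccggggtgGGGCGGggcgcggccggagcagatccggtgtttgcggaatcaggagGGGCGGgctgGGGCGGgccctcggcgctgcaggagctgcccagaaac
ITGB6: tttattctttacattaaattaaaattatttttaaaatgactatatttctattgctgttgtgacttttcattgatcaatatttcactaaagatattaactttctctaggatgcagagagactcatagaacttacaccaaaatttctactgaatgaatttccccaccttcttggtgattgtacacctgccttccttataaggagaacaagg
Over the whole 250 bases before the start site, the ITGB1 promoter had a GC content of 78.4%, 32 CG dinucleotides and 3 matches to GGGCGG. The ITGA1 promoter had a GC content of 62%, 16 CG dinucleotides and 0 matches, and the ITGA2 promoter 76.4%, 26 and 4, of which 3 are in the stretch printed. The ITGB6 promoter stood apart, with a GC content of 30%, 0 CG dinucleotides and 0 matches, against a median of 58.0% and 11 CG dinucleotides over 34788 promoter windows of this length. GGGCGG was found on either strand in 42.6% of those windows. CCAAT (32.0% of windows), TATAAA (10.8%) and TGANTCA (6.59%), searched on both strands, were found in none of the 8 members with a promoter in the RefSeq table, which were those printed and ITGA5, ITGA6, ITGAV and ITGB5.

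Levels are given as CPM, the usual depth-scaled read count, here with library sizes adjusted by the TMM method. The libraries held 33970420 to 39749648 reads assigned to genes, and 15496 genes passed the filter on low counts, among them 9 of the 10 members. ITGB6 was listed at 0 reads in every library. Whether reads of this gene were lost in counting was not tested, and ILK, the kinase gene at the core of the adhesion complex, was also listed at only 9 to 35 reads per library (ILK is named here after its values were seen). At these depths 3 reads, the limit that a count of 0 allows, correspond to 0.0754 to 0.0966 CPM. The other members had 401 to 102355 reads per library. A gene is said to have risen or fallen where its adjusted p was under 0.05 in the quasi-likelihood test of edgeR, adjusted by Benjamini-Hochberg over all tested genes. Of the 9 members tested, 4 fell (ITGB1, ITGA1, ITGA6 and ITGAV), 1 rose (ITGA5) and 4 did not pass (ITGA2, ITGA3, ITGB4 and ITGB5). All treated libraries lay below all controls for the 4 genes that fell, above for ITGA5, and overlapped for the rest. Over all tested genes 18.7% were called lower, 15% higher and 33.7% in either direction, while 24.2% had all treated libraries below all controls and 21.8% above, 46% in all. The median log2 fold change of the members was -0.03, against -0.05 over all tested genes.

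Fold changes in these libraries followed the GC content of the transcripts, and the members span that range. GC content of the longest annotated transcript was 38.3% for ITGAV, 38.8% for ITGA1, 39.98% for ITGB1, 40.2% for ITGA2 and 42.9% for ITGA6, and 54.3% to 63.7% for ITGB5, ITGA5, ITGA3 and ITGB4. In the tenth of tested genes with the GC content of ITGB1 and ITGA2, 46% of genes were called lower and 0.775% higher, with a median log2 fold change of -0.52. In the tenth that holds ITGB4, 0.387% were called lower and 49.6% higher, with a median of 0.43. Each member is therefore also given after a correction that removes smooth trends with GC content and transcript length from each library, and which would also remove any treatment effect that follows these properties. After it 5.58% of all tested genes were called lower and 5.4% higher, 11% in all. Of the 9 members, 5 were then called lower (ITGB1, ITGA1, ITGA6, ITGA3 and ITGB4) and 1 higher (ITGA2), and 3 (ITGB1, ITGA1 and ITGA6) kept their call and direction. All treated libraries lay below all controls for 7 members and above for 1, against 14.9% and 13.6% of all tested genes. The corrected median log2 fold change was -0.28 for the members and -0.0045 over all tested genes. The part of GC content in the results was not otherwise tested.

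**Figure D1:**
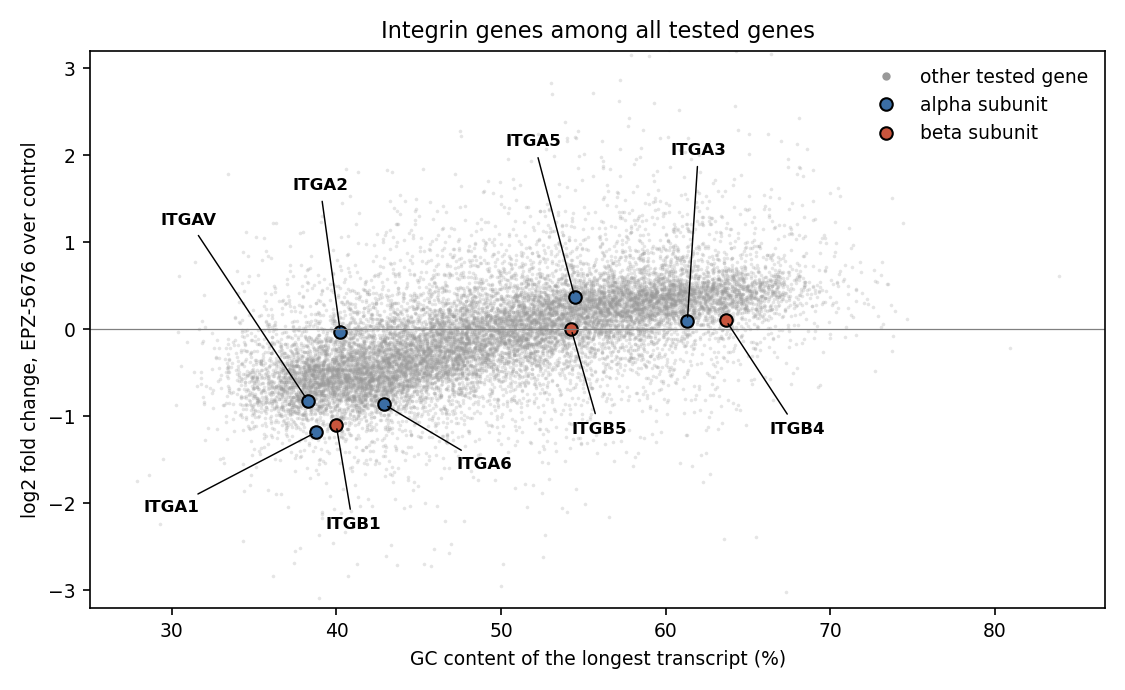
Log2 fold change (EPZ-5676 over control, without correction) against GC content of the longest transcript, with 1 grey point per tested gene and 9 integrin genes marked by subunit type. ITGA2 and ITGA5 lie above the median of the tenth of tested genes with like GC content, and the other marked genes lie below it. Beyond the axis limits of 3.2 in either direction lie 9 genes.

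ITGB1 (ENSG00000150093, GRCh38 chromosome 10, 32900319 to 33005792, minus strand), which encodes the β subunit shared by most matrix receptors of epithelial cells, had the strongest evidence of change among the members. Its level was 572, 387 and 479 CPM in control libraries and 192, 246 and 234 CPM under EPZ-5676. All treated libraries lay below all controls, and the controls differed among themselves by up to 1.48 times. The mean fell from 479 ± 92.6 to 224 ± 28.4 CPM (SD, n = 3 each), to 46.7% of the control level, a log2 fold change of -1.10 ± 0.13 (SE; edgeR adjusted p = 1.58e-05). After the correction the log2 fold change was -0.58 ± 0.08 (edgeR adjusted p = 5.56e-05), and the groups still did not overlap. In such bulk libraries, fewer cells with a transcript and less of it per cell cannot be told apart. ITGB1-DT, a noncoding gene on the opposite strand that overlaps ITGB1, did not pass the test, at 4.201 ± 1.37 and 5.52 ± 1.27 CPM (SD, n = 3 each; edgeR adjusted p = 0.265).

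**Figure D2:**
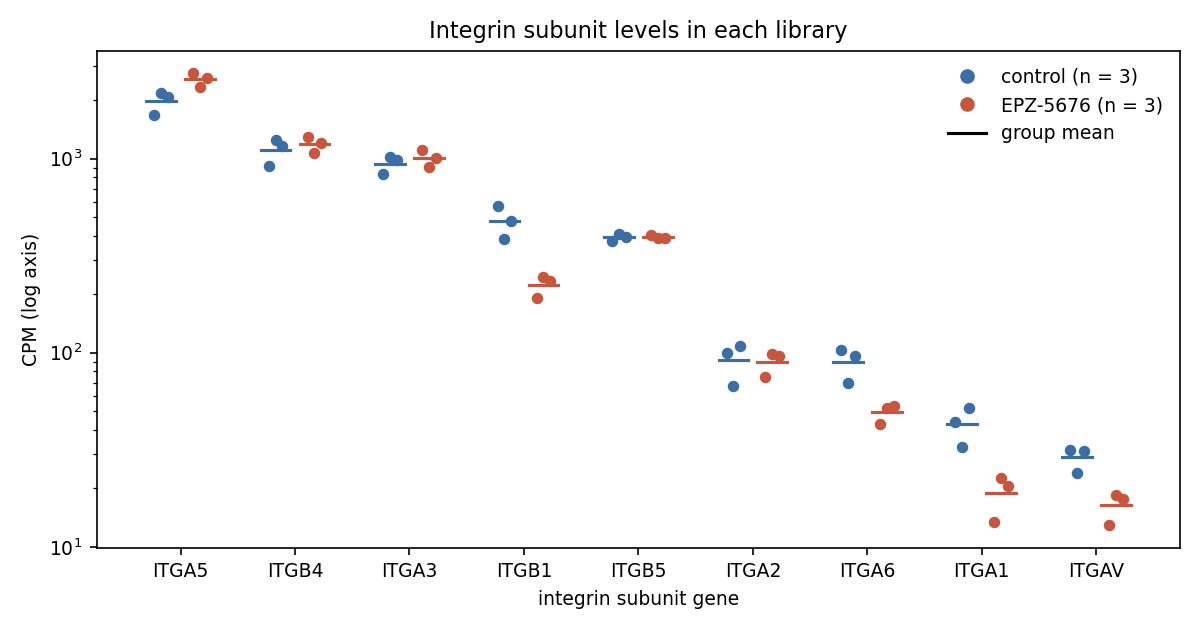
CPM of the 9 detected integrin genes in each of 3 control and 3 EPZ-5676 libraries (points), with group means (lines) on a log axis. Treated libraries lie below all controls for ITGB1, ITGA6, ITGA1 and ITGAV and above them for ITGA5, and the groups overlap for ITGB4, ITGA3, ITGB5 and ITGA2.

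The collagen receptor subunits α1 and α2 are encoded by neighbouring genes on chromosome 5 that are read in the same direction with 30.12 kb between them. ITGA1 (ENSG00000213949, 52787896 to 52959210) encodes the partner of β1 that prefers collagen IV. It was at 44.0, 32.8 and 51.9 CPM in control libraries and 13.4, 22.6 and 20.6 CPM under EPZ-5676. The groups did not overlap, and the fall to 44.0% of the control mean was close to that of ITGB1, with a log2 fold change of -1.18 ± 0.18 (SE; edgeR adjusted p = 0.000132) and -0.63 ± 0.12 after the correction (edgeR adjusted p = 0.00175). PELO, a ribosome rescue factor gene that lies within ITGA1 on the same strand, stood at 47.3 ± 2.51 CPM without and 47.3 ± 2.73 CPM with the inhibitor (SD, n = 3 each). Reads in the stretch the genes share may have been assigned to either, which adds uncertainty to the level of ITGA1.

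ITGA2 (ENSG00000164171, 52989326 to 53094779), the α2 partner that prefers fibrillar collagen, did not pass the test. Its level was 99.8, 67.7 and 108 CPM in control libraries and 74.9, 98.3 and 96.3 CPM under EPZ-5676. The groups overlapped, with means of 91.9 ± 21.3 and 89.8 ± 12.998 CPM (SD, n = 3 each) and a log2 fold change of -0.03 ± 0.14 (SE; edgeR adjusted p = 0.883). After the correction ITGA2 was called higher, with a log2 fold change of 0.48 ± 0.09 (edgeR adjusted p = 0.00114) and all treated libraries above all controls. The ratio of ITGA1 to ITGA2 within each library depends on no scaling between libraries, and the genes are close in GC content. On the log2 scale of CPM per kb it was -2.41, -2.28 and -2.29 in the controls and -3.71, -3.35 and -3.45 in the treated libraries. The groups were apart by 1.18 on this scale, and by 1.13 after the correction, against SDs of 0.07 and 0.18 (n = 3 each).

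The laminin receptor genes ITGA6, ITGB4 and ITGA3 divided before the correction, and all were called lower after it. ITGA6 (ENSG00000091409, chromosome 2, 172427354 to 172506282), whose product pairs with β1 or β4, was at 103, 69.5 and 96.5 CPM in control libraries and 43.1, 51.9 and 52.9 CPM under EPZ-5676. The groups did not overlap, and ITGA6 fell to 55.0% of the control mean, with a log2 fold change of -0.86 ± 0.13 (SE; edgeR adjusted p = 0.000146) and -0.46 ± 0.09 after the correction (edgeR adjusted p = 0.00205). Its exclusive β partner in hemidesmosomes, ITGB4 (ENSG00000132470, chromosome 17, 75721328 to 75757818), did not pass, at 913, 1242 and 1161 CPM in control libraries and 1297, 1067 and 1200 CPM under EPZ-5676. The ITGB4 libraries overlapped, with a log2 fold change of 0.10 ± 0.12 (edgeR adjusted p = 0.524), but after the correction ITGB4 was called lower, at -0.31 ± 0.08 (edgeR adjusted p = 0.0133). ITGA3 (ENSG00000005884, chromosome 17, 50055968 to 50090481), the α3 partner of β1 for laminin, gave the same pattern. It was at 832, 1015 and 978 CPM in control libraries and 1103, 901 and 1008 CPM under EPZ-5676, with a log2 fold change of 0.09 ± 0.11 (edgeR adjusted p = 0.544). After the correction ITGA3 was called lower, at -0.28 ± 0.08 (edgeR adjusted p = 0.0200). These calls were lost under the correction without control replicate 2, EPZ-5676 replicate 2 or EPZ-5676 replicate 3 (edgeR adjusted p = 0.0625 to 0.105 for ITGB4 and 0.0648 to 0.152 for ITGA3). The ITGB4 gene overlaps GALK1, a galactose kinase gene on the opposite strand that rose from 169.7 ± 15.0 to 265.4 ± 30.3 CPM (SD, n = 3 each; edgeR adjusted p = 0.000282). With the strand setting of the counting not given in the sources used here, reads of either gene could have been counted for the other, and their part in the level of ITGB4 was not tested.

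The fibronectin receptor subunit gene ITGA5 (ENSG00000161638, chromosome 12, 54395261 to 54419460) was the member that rose, and the one with the highest level. It was at 1684, 2178 and 2087 CPM in control libraries and 2751, 2349 and 2588 CPM under EPZ-5676. All treated libraries lay above all controls, but the closest values of the groups, 2178 and 2349 CPM, were nearer to each other than the lowest and highest controls. The mean went from 1983 ± 263 to 2563 ± 202 CPM (SD, n = 3 each), 1.29 times the control, with a log2 fold change of 0.37 ± 0.11 (SE; edgeR adjusted p = 0.0158). The call was lost without control replicate 1 (edgeR adjusted p = 0.0936), without EPZ-5676 replicate 3 (0.0580) and after the correction, where the log2 fold change was 0.20 ± 0.08 and the groups overlapped (0.132).

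Of the genes for αV, β5 and β6, only that of αV fell. ITGAV (ENSG00000138448, chromosome 2, 186590065 to 186680901), whose product pairs with β1, β5 and β6, was at 31.6, 24.0 and 31.2 CPM in control libraries and 12.9, 18.5 and 17.7 CPM under EPZ-5676. It fell to 56.6% of the control mean without overlap, with a log2 fold change of -0.82 ± 0.16 (SE; edgeR adjusted p = 0.000973). The call was lost after the correction, at -0.28 ± 0.12 (edgeR adjusted p = 0.136), although all treated libraries still lay below all controls. ITGB5 (ENSG00000082781, chromosome 3, 124761948 to 124901418), the vitronectin receptor partner of αV, was the steadiest member. It was at 376, 409 and 393 CPM in control libraries and 406, 390 and 389 CPM under EPZ-5676, and its libraries within a group differed by at most 1.09 times. Its log2 fold change was 0.01 ± 0.10 (SE; edgeR adjusted p = 0.954) and -0.15 ± 0.07 after the correction (edgeR adjusted p = 0.182). ITGB6 (ENSG00000115221, chromosome 2, 160099666 to 160200313), the epithelial αV partner that activates latent TGF-β, was the member listed at 0 in all 6 libraries.

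**Figure D3:**
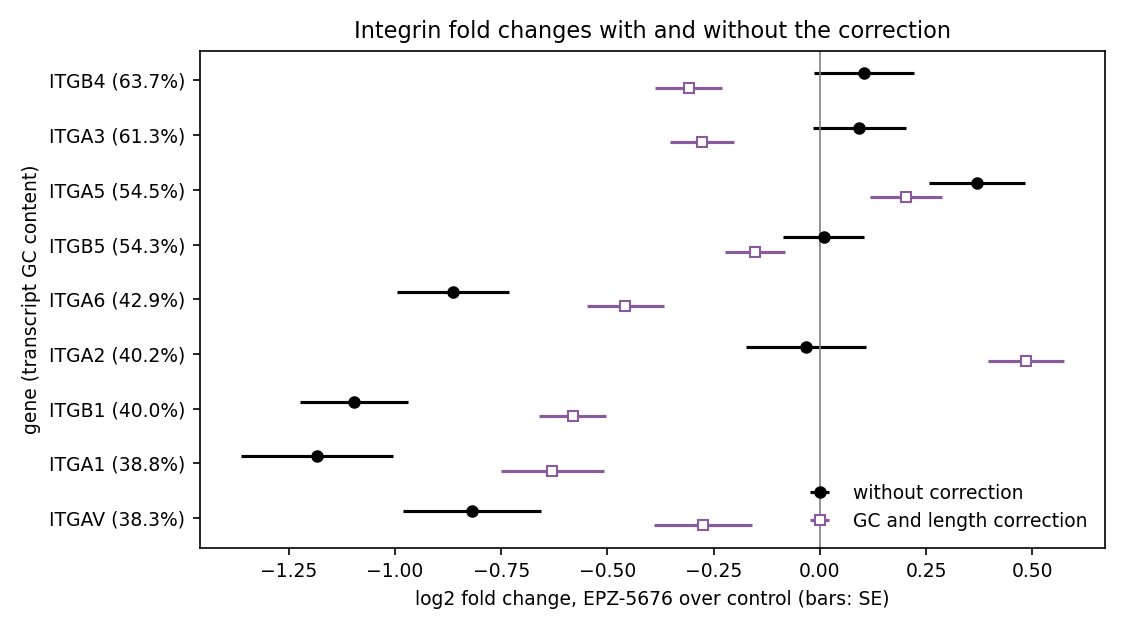
Log2 fold change ± SE of 9 integrin genes, ordered by transcript GC content, without correction (filled circles) and after the GC and length correction (open squares). ITGB1, ITGA1 and ITGA6 stay below 0 in both, ITGA2 moves from -0.03 to 0.48, and ITGA3 and ITGB4 move from about 0 to -0.28 and -0.31.

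To compare levels between subunits, CPM was divided by the gene length in the deposited table, giving CPM per kb. In the controls ITGA5 was highest at 262 ± 34.7 CPM per kb, followed by ITGB4 at 163 ± 25.3, ITGA3 at 96.0 ± 9.88, ITGB1 at 79.7 ± 15.4 and ITGB5 at 60.9 ± 2.63 (SD, n = 3). ITGA6 at 13.7 ± 2.72, ITGA2 at 11.6 ± 2.69, ITGAV at 3.52 ± 0.52 and ITGA1 at 2.31 ± 0.517 CPM per kb were far lower (SD, n = 3). The libraries of neighbours in this order overlapped for ITGA3 and ITGB1 and for ITGA6 and ITGA2, and for no other neighbours. In the treated libraries no neighbours overlapped, and ITGB1 at 37.3 ± 4.72 CPM per kb ranked below ITGB5 at 61.3 ± 1.45, and ITGA6 at 7.55 ± 0.831 below ITGA2 at 11.4 ± 1.64 (SD, n = 3). The order was the same with the length of the longest transcript.

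ITGB1 took a smaller share of the β subunit transcripts in the treated libraries before the correction, but not beyond the spread after it. It made up 33.0%, 20.7% and 25.5% of the summed β level (CPM per kb) in the controls and 11.1%, 15.8% and 14.1% in the treated libraries. The groups did not overlap, with means of 26.4 ± 6.21% and 13.7 ± 2.35% (SD, n = 3 each), while ITGB4 went from 53.6 ± 6.19% to 64.0 ± 3.02%. After the correction the ITGB1 shares were 20.8 ± 2.29% and 17.5 ± 1.33% and overlapped, as did the ITGB4 shares of 58.9 ± 2.77% and 59.7 ± 1.64% (SD, n = 3 each). Within the α subunits ITGA5 held 67.2 ± 2.13% in the controls and 73.1 ± 0.358% in the treated libraries, and without overlap after the correction too, at 67.1 ± 1.89% and 73.4 ± 0.755% (SD, n = 3 each). The summed α level was 1.28 ± 0.0804 times the summed β level in the controls and 1.69 ± 0.0404 times in the treated libraries, and 1.29 ± 0.0490 and 1.71 ± 0.0657 times after the correction (SD, n = 3 each). This ratio was higher in all treated libraries than in all controls with and without the correction.

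Subunits that pair with each other were also compared as ratios within a library. ITGA5 stood at 2.34, 4.47 and 3.46 times the level of ITGB1 per kb in the controls and at 11.4, 7.57 and 8.78 times in the treated libraries. The groups were apart before the correction and after it, when the means were 4.22 ± 0.727 and 7.23 ± 0.887 times (SD, n = 3 each). The 6 α partners of β1 together were 5.06 ± 1.43 times ITGB1 in the controls and 12.6 ± 2.59 times in the treated libraries, a difference of 1.34 in the mean log2 ratio, which was 0.65 after the correction and still without overlap. ITGB4 was at 8.56, 17.3 and 11.6 times the level of ITGA6 per kb in the controls and at 29.1, 19.9 and 21.9 times in the treated libraries. Here the mean log2 ratio of ITGA6 to ITGB4 was lower by 0.96 in the treated libraries without the correction, but only by 0.14, with overlap, after it. No p is given for these ratios, since an exact two-sided permutation test of 3 against 3 libraries cannot go below 0.1.

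**Figure D4:**
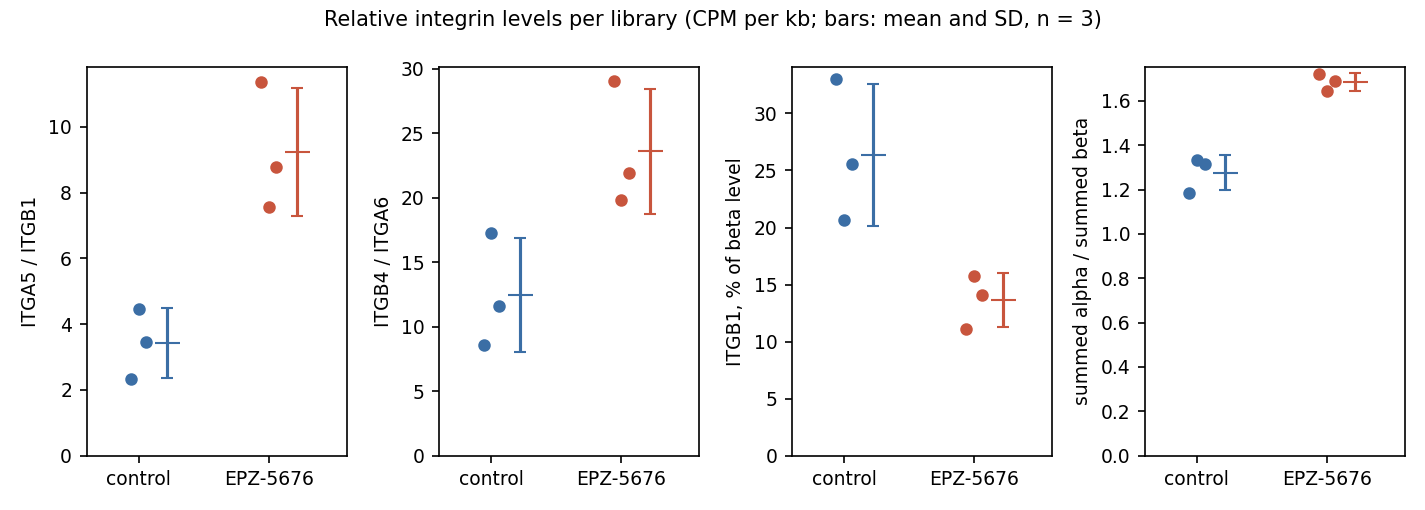
ITGA5 over ITGB1, ITGB4 over ITGA6, ITGB1 as a share of the summed β level, and summed α over summed β level, from uncorrected CPM per kb, for each library (points) with mean and SD per group of 3. No treated library overlaps a control in any of the 4 panels.

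Among the 4607 genes whose mean log2 CPM reached 5, the profile of ITGB1 over the 6 libraries, centred on its mean, was nearest to those of CDK1, HSP90B1, BZW1, OGT and ARL6IP1. Their root mean square differences from ITGB1 were 0.0432, 0.0669, 0.0736, 0.0795 and 0.0808 on the log2 CPM scale. All 5 fell, but they were chosen for closeness to ITGB1 over treated and control libraries together, so that this follows from the choice. CDK1 drives entry into mitosis, and HSP90B1 is a chaperone of the endoplasmic reticulum on which integrin folding depends. BZW1 acts in translation initiation and OGT adds N-acetylglucosamine to proteins in the nucleus and cytosol. Whether any of these genes is regulated together with ITGB1 was not tested. The GC content of these 5 genes was between 37.0% (CDK1) and 42.9% (OGT), close to that of ITGB1. Among the members the differences from ITGB1 were 0.135 for ITGA6, 0.159 for ITGAV and 0.198 for ITGA1, and from 0.550 for ITGA2 to 0.799 for ITGA5 for the rest.

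Of the remaining 16 integrin subunit genes, most of them of leukocytes, platelets or mesenchymal cells, 7 were tested, 1 was called higher and 0 lower, and 0 higher and 2 lower after the correction. Their median log2 fold change was 0.72 against -0.05 over all tested genes, and 0.38 against -0.0045 after the correction. The median of 0.72 is the value of ITGAX, which had 18 to 90 reads per library. ITGA7, ITGB3 and ITGB8 were also positive, at means of only 1.19, 1.58 and 0.52 CPM. The better-expressed ITGB2, ITGAE and ITGA2B had negative values of -0.28, -0.23 and -0.11, at means of 28.8, 19.7 and 5.75 CPM. ITGB3, the β3 partner of αV and of the platelet αIIb, was at 1.13, 1.37 and 0.616 CPM in control libraries and 1.87, 2.19 and 2.28 CPM under EPZ-5676. It rose without overlap, with a log2 fold change of 1.02 ± 0.38 (SE; edgeR adjusted p = 0.0418), but was called in 7 of 22 alternative fits and not after the correction (edgeR adjusted p = 0.119). ITGB2, the leukocyte β2 subunit, was at 31.5 ± 2.76 and 26.0 ± 2.05 CPM and ITGAE, the αE partner for E-cadherin, at 21.2 ± 2.19 and 18.2 ± 2.01 CPM (SD, n = 3 each). Neither passed before the correction (edgeR adjusted p = 0.107 and 0.265), and both were called lower after it (0.000626 and 0.0484). Over the 22 alternative fits ITGB2 was called lower in 8 and ITGAE in only 2. ITGA2B at 5.97 ± 0.563 and 5.52 ± 0.129 CPM, ITGAX at 1.31 ± 0.925 and 2.14 ± 0.466 CPM and ITGA7 at 0.900 ± 0.246 and 1.49 ± 0.718 CPM did not pass in either fit (SD, n = 3 each; control given before treated).

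Among 35 adaptors and kinases that link integrins to actin and to signalling, 33 were tested, 8 were higher and 8 lower, and 3 higher and 2 lower after the correction, with a median log2 fold change of 0.14 that was -0.01 after it. For this and the other lists of related genes, the shares over all tested genes are 15% higher and 18.7% lower, and 5.4% and 5.58% after the correction. LIMS2, a LIM adaptor of the integrin-linked kinase complex, rose from 27.3 ± 4.10 to 52.9 ± 4.85 CPM (SD, n = 3 each; log2 fold change 0.96 ± 0.13, edgeR adjusted p = 6.09e-05), and remained called after the correction (0.57, edgeR adjusted p = 0.000714). Its paralogue LIMS1 fell, with a log2 fold change of -0.61 ± 0.13 (edgeR adjusted p = 0.00150), but not after the correction (-0.14, edgeR adjusted p = 0.440). In what follows, log2 fold changes in parentheses are uncorrected where an SE is given and corrected where none is given. The parvin gene PARVB (0.40 ± 0.10) and the kinase gene SRC (0.52 ± 0.12) rose, and of these PARVB was called after the correction (edgeR adjusted p = 0.0410 against 0.202 for SRC). SHARPIN, an inhibitor of integrin activation, rose (0.50 ± 0.10) before the correction and was at 0.03 after it. The kindlin gene FERMT2 (-0.65 ± 0.14) and the small GTPase genes RAP1A (-0.57 ± 0.13) and RAP1B (-0.54 ± 0.11), which promote integrin activation, fell and were not called after the correction, with log2 fold changes of -0.08, -0.01 and 0.05. The α-actinin gene ACTN4 (-0.02 ± 0.11) did not pass, although it was called lower after the correction (-0.32, edgeR adjusted p = 0.00833).

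Of 29 symbols for matrix ligands of integrins, 27 were in the table and 24 were tested, with 5 higher and 2 lower, and 3 higher and 5 lower after the correction, against the all-gene shares of 15% and 18.7%, and 5.4% and 5.58%. The median log2 fold change of these ligands was 0.02, and -0.02 after the correction. The collagen VI chains COL6A2 (1.61 ± 0.21) and COL6A1 (0.82 ± 0.11) rose, and MFGE8 (0.88 ± 0.16), an RGD protein bound by αV integrins, rose from 12.8 ± 2.37 to 23.5 ± 1.03 CPM (SD, n = 3 each). These were called in all 22 alternative fits. TGFB1 (0.65 ± 0.13), whose latent form is bound by αV integrins, rose but was not called after the correction (edgeR adjusted p = 0.0989). The laminin chains LAMC1 (-0.39 ± 0.11) and LAMA3 (-0.48 ± 0.16) fell, and were called after the correction too (edgeR adjusted p = 0.0219 and 0.0240). Over the 22 alternative fits LAMC1 was called in 19 and LAMA3 in 13. The fibronectin gene FN1, ligand of the α5β1 receptor, was at 848 ± 197 and 848 ± 136 CPM (SD, n = 3 each) and did not pass, nor did the laminin chain LAMA5 (0.23 ± 0.12).

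Of 11 hemidesmosome genes and lateral partners of integrins in the membrane, 11 were tested, with 3 higher and 3 lower, and 0 higher and 2 lower after the correction, where 15% and 18.7%, and 5.4% and 5.58%, of all tested genes were called. The median log2 fold change was 0.04, and -0.06 after the correction. Plectin (PLEC), which ties the β4 tail to keratin, rose from 1261 ± 282 to 2108 ± 487 CPM (SD, n = 3 each; 0.74 ± 0.16), as did the tetraspanins CD151 (0.35 ± 0.10) and CD81 (0.38 ± 0.11). CAV1 (-0.39 ± 0.10), CD47 (-0.50 ± 0.13) and DST (-0.65 ± 0.22) fell. None of these 6 was called after the correction. BSG (0.02 ± 0.11) and CD9 (0.04 ± 0.10) did not pass, although BSG was called lower after the correction (-0.36, edgeR adjusted p = 0.00346). Of 20 genes of integrin trafficking, 18 were tested, with 3 higher (15% of all tested genes) and 5 lower (18.7%), and 3 higher (5.4%) and 0 lower (5.58%) after the correction, and a median log2 fold change of -0.21, which was 0.05 after it. The sorting nexin SNX17 (0.49 ± 0.10), which returns β1 from endosomes to the surface, rose and was called after the correction (edgeR adjusted p = 0.0393). The clathrin adaptor subunits AP2A1 (0.42 ± 0.12) and AP2M1 (0.31 ± 0.10) rose, and RAB5A (-0.59 ± 0.12), CLTC (-0.49 ± 0.13), VPS35 (-0.50 ± 0.14) and RABGAP1 (-0.55 ± 0.15) fell, and none of these 6 was called after the correction. ARF6 (0.10 ± 0.10), a GTPase of integrin recycling, and HAX1 (0.00 ± 0.10) did not pass, although ARF6 was called higher after the correction (0.51, edgeR adjusted p = 0.000506).

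**Figure D5:**
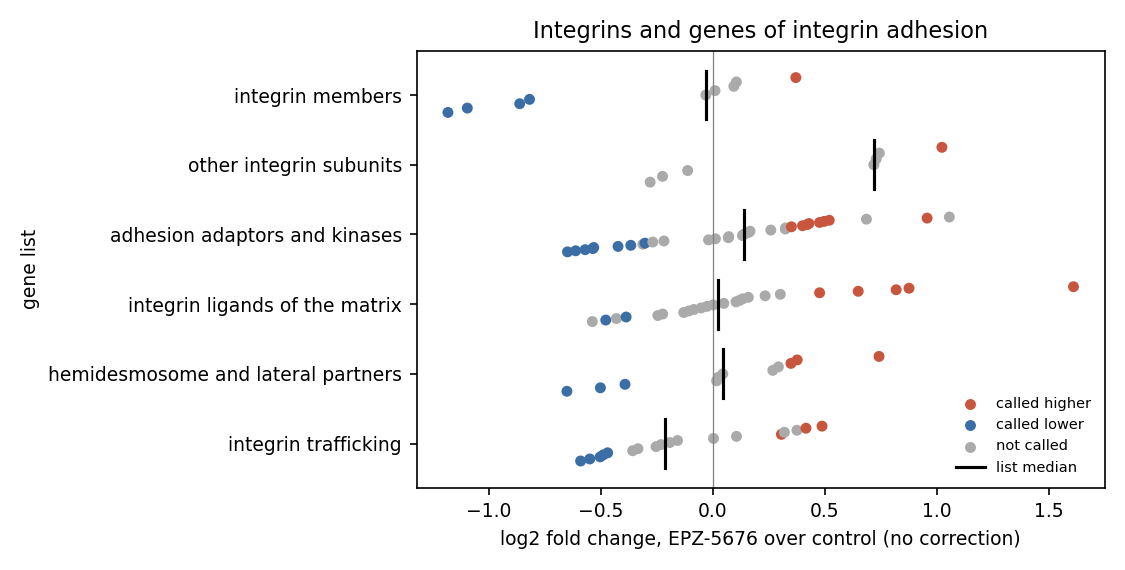
Log2 fold changes without correction of the tested integrin members and of 5 lists of related genes, 1 point per gene, coloured by call, with list medians as bars. The 4 lowest values shown belong to members, whose median is -0.03.

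The labelled cell type was checked on its markers. The simple-epithelial keratin genes KRT7, KRT8 and KRT18 were between 1142 and 3974 CPM in every library. In contrast CDH1, the E-cadherin gene, was listed at 0 in all 6 libraries and KRT19 was between 0.202 and 0.744 CPM. Whether reads of CDH1 or KRT19 were lost in counting was not tested. Of the 9 ductal markers 8 were tested and 4 rose (15% of all tested genes), with 1 called higher after the correction (5.4%), and the summed level was 5472 to 6281 CPM without and 6675 to 8498 CPM with the inhibitor. The part of epithelial marker levels in the integrin results was not tested. The 9 fibroblast markers were summed at 89.8 to 96.0 CPM without and 96.0 to 102 CPM with the inhibitor. Of these 6 were tested, and 1 rose and 2 fell (15% and 18.7% of all tested genes). None was called after the correction. The marker that rose, COL1A1, was at 35.9 to 50.8 CPM without and 56.3 to 64.6 CPM with the inhibitor. The 5 endothelial markers were summed at 1.54 to 3.38 CPM over all libraries, with KDR at 0. The 8 leukocyte markers were summed at 48.1 CPM in control replicate 2 and at 29.4 to 34.2 CPM in the other libraries. Most of this sum was ITGB2, at 34.6 CPM in control replicate 2 and 24.3 to 30.8 CPM in the others. The pan-leukocyte gene PTPRC was at 4.38 CPM in control replicate 2, 0.228 CPM in EPZ-5676 replicate 2 and 0 in the other 4 libraries. Control replicate 2 was also the control with the lowest ITGB1, ITGA1, ITGA6 and ITGAV. Without it the 4 falls were larger, with log2 fold changes of -1.21, -1.32, -1.0 and -0.92, and the same counts of 4 lower and 1 higher were called. Over all genes, 3167 were called lower and 2780 higher without that library, against 2899 and 2326 with it.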

How the data were processed

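Polyadenylated RNA of SW1990 cells was sequenced with a strand-marking dUTP protocol, per the labels' protocols, and the submitters' processing notes name HISAT2 2.2.1 and the build GRCh38 (hg38). The deposited table holds raw read counts per gene. Counting tool, strand setting and annotation release were not given in the sources used here. Each of the 58735 genes had the coordinates of GENCODE 29, which gave transcript GC content and length.

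The test on these counts was run in edgeR 4.0.16 under R 4.3.3 (filterByExpr with a minimum count of 10, TMM, robust quasi-likelihood, 3 against 3 libraries, adjusted p under 0.05), after a test of the scripts on simulated data. The standard error is the log2 fold change divided by the square root of F. For the correction, natural splines with 5 degrees of freedom in GC content and log2 length were fitted to each library's deviation of log2 CPM (prior count 2) from the gene mean and entered as offsets. Alternatives were DESeq2 1.42.0, limma-voom (limma 3.58.1), other scalings and filters, protein-coding genes alone, a replicate block and each library left out. The members and lists were chosen with earlier results of these data known. All members were named, as were other integrins with a mean of at least 1 CPM and, from each further list, up to 4 called genes per direction with the smallest p and up to 2 not called with the highest level; 1 gene so chosen is not reported here. Promoters are from RefSeq (GRCh38.p14), with the start nearest to that of the principal GENCODE transcript. Plots used matplotlib 3.10.9 under Python 3.11.15.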

Additional observations from a re-analysis of the deposited data

How the results depend on the processing

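ITGB1, ITGA1 and ITGA6 fell in all 22 alternative fits, with log2 fold changes of -1.21 to -0.52, -1.33 to -0.51 and -1.0 to -0.40. ITGAV fell in the 14 fits without the correction and in 0 of 8 with it (edgeR adjusted p = 0.136 to 0.379). ITGA5 was called higher in 12 of 22. ITGB5 passed in none. The number of members called lower was 4 in every fit without the correction and 3 to 5 with it. The number called higher was 0 without control replicate 1 or EPZ-5676 replicate 3, 1 in the other fits, and stood for ITGA2 in place of ITGA5 under the correction.

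The correction gave 3 members a call opposite in sign to their uncorrected value. ITGA2 was at 0.48, at 0.49 with the replicate block and at 0.40 to 0.57 with a library left out (0.52 without EPZ-5676 replicate 1, 0.45 without EPZ-5676 replicate 2). ITGA3 was at -0.28 with and without the block and at -0.32 to -0.22 with a library left out (-0.29 without control replicate 1), and ITGB4 at -0.31 with and without the block and at -0.36 to -0.26 (-0.30 without control replicate 3, -0.35 without EPZ-5676 replicate 1). The ITGA2 share of the α level was higher by 0.769 percentage points under the correction and lower by 0.550 without it, and the ITGB4 share of the β level was higher by 0.780 under it and by 10.4 without it. The difference in the mean log2 ratio of ITGA6 to ITGB4 was -0.14 under the correction, and that of the α partners to ITGB1 was 0.65. With a library left out, these differences were computed without the correction alone, and were -1.22 to -0.72 and 1.11 to 1.54. By construction the correction removes what follows GC content and length.

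Over all genes, 2326 were called higher and 2899 lower. The correction left 837 higher and 864 lower, and 689 and 685 with the replicate block. Leaving out a library gave 1350 to 2780 higher and 1753 to 3167 lower, and, under the correction, 589, 856 and 523 higher and 566, 815 and 705 lower without control replicates 1, 2 and 3, and 397, 611 and 602 higher and 512, 560 and 542 lower without EPZ-5676 replicates 1, 2 and 3. The replicate block without the correction gave 1677 and 2219 and changed no call of a member. Deviations from the group means of same-numbered libraries correlated at -0.11, -0.09 and 0.05 across genes, and 1 of 3 controls correlated best with its own number. These values show no sign of pairing by number, but with 3 libraries per group they cannot exclude it. ITGB6 was listed at 0 in all libraries, for which the cause was not tested, and ITGAV had the fewest reads of the rest, with 401 to 1256 reads per library.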
